A study of Sus scrofa with 32 samples.

Results

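The transcriptomes of pig liver and pig fat tissue were compared across all 32 libraries of the series, 16 from liver and 16 from fat. A library belonged to a tissue by the source name in its sample description, and no measured value was used to choose it. All pigs were Zlotnicka White females of 180 days that had shared feed and housing and were slaughtered near 100 kg. Each tissue held 8 libraries of pigs with high fat deposition (HFD) and 8 of pigs with low fat deposition (LFD). The labels keep this grouping by fat content under a tag named for shear force, and they set apart no diet, genotype or agent. The paper reports, however, that FGL1 genotypes were distributed differently between HFD and LFD pigs. No genotype is given per library, so fat group and FGL1 genotype cannot be told apart here. The labels give no site of the body for the fat, and they do not tie a liver and a fat library to one pig, so nothing was paired across tissues. Replicates carried a number and no further origin, so p-values measure the spread between these libraries. Liver and fat were sequenced on different lanes and counted into separate tables, and tissue cannot be told apart from lane and table.

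Hepatocytes, the parenchymal cells of liver, secrete most plasma proteins, detoxify ammonia through the urea cycle, make bile acids and release glucose between meals. White adipocytes take up or build fatty acids, store them as triglyceride in a lipid droplet coated by perilipins and secrete hormones such as leptin and adiponectin. In pigs, new fatty acids are made mainly in adipose tissue, whereas in rodents and humans the liver has a larger part.

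The counts ran from 19837882 to 30457374 per liver library, with the 2 runs of each library added, and from 9409976 to 19484621 per fat library. Of the 31908 genes listed by Ensembl identifier, 8057 had no count in any library, and 14324 passed a filter on low counts and were tested. Levels are CPM, the counts of a gene scaled to a fixed library total, after TMM scaling, which sets the libraries to a common level from the genes that differ least. The first principal component took 84.3% of the variance and parted the tissues without overlap. The Spearman correlation between libraries was 0.964 to 0.987 among livers, 0.806 to 0.989 among fat libraries and 0.606 to 0.68 between a liver and a fat library. Fat HFD replicate 2 stood apart from the other fat libraries: 80.9% of its counts lay in 10 genes, and without it the lowest correlation within fat was 0.939. It also held the highest level of each of the 8 hepatocyte markers among fat libraries, and liver HFD replicate 2 held the highest level of 7 of the 8 adipocyte markers among livers. Many results that rest on these 2 libraries are given with and without them, and the others with all libraries only.

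**Figure D1:**
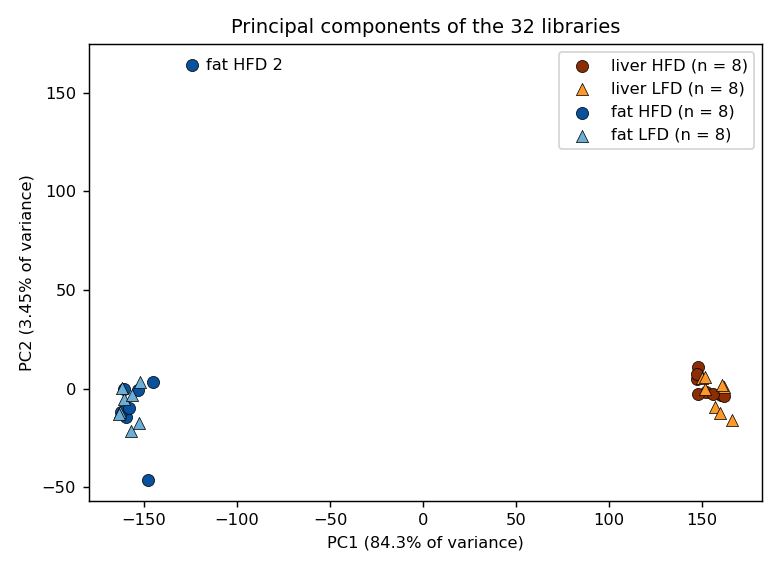
First and second principal components of the log2 CPM of 32 libraries, with the percentage of variance on each axis. Circles are HFD and triangles LFD libraries, liver in brown and orange and fat in blues, and fat HFD replicate 2 lies far from the other 15 fat libraries on the second component.

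The labelled tissues carried the markers of their defining cells. All 8 hepatocyte markers were higher in liver and all 8 adipocyte markers were higher in fat. Of all genes tested, 40.9% were higher in liver and 38.5% higher in fat. The summed level of the hepatocyte markers ran from 127850 to 192070 CPM in the livers and from 21.0 to 1145 CPM in the fat libraries, the highest being fat HFD replicate 2. The summed level of the adipocyte markers ran from 10820 to 15874 CPM in fat and from 23.0 to 105 CPM in liver, the highest being liver HFD replicate 2. No marker of either list was at 0 in all libraries of the other tissue.

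Liver and fat differed in most of the genes tested. With edgeR's quasi-likelihood test and Benjamini-Hochberg adjustment, 5858 genes (40.9%) were higher in liver and 5520 (38.5%) higher in fat at an adjusted p under 0.05. A difference of 2-fold or more was found for 3136 genes (21.9%) higher in liver and 3178 (22.2%) higher in fat. In 2409 genes (16.8%) every liver library lay above every fat library, and in 2067 (14.4%) every fat library lay above every liver library. These shares are the background for the counts of list members and markers below. The largest differences were on the side of liver, where 1158 genes were higher by 10-fold or more and 204 by 1000-fold or more, against 981 and 29 genes in fat. Genes that were 2-fold or more higher in liver held a median of 64.5% of the counts of a liver library, from 42.2% to 66.2%, and a median of 6.96% of those of a fat library. Genes that were 2-fold or more higher in fat held a median of 41.7% of the counts of a fat library, from 38.5% to 75.4%, and a median of 7.17% of those of a liver library. The 75.4% was that of fat HFD replicate 2, and the other fat libraries held 43.1% or less. These genes include ENSSSCG00000041596 and ENSSSCG00000041875, which took 45.2% and 19.3% of its counts and did not pass without that library. Their medians were 5.88% and 1.63% in HFD fat and 3.59% and 0.996% in HFD liver. The shares without these 2 genes were not computed. The split between the tissues depended on the scaling: of the genes called, 51.5% were higher in liver with TMM, 41.3% with upper quartile scaling (4716 in liver, 6696 in fat) and 25.7% with total count scaling (3007 and 8698). Over all genes, the log2 fold change of liver over fat had a median of 0.02 with TMM, -0.19 with upper quartile scaling and -0.64 with total count scaling, so small differences hold only relative to that centre. In whole tissue, fewer cells of a type and less RNA per cell cannot be told apart.

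Of the gene lists described here, plasma carrier proteins took the largest share of the liver counts. All 14 tested members of this list were higher in liver, without overlap of the tissues, where 40.9% of all genes were higher in liver and 16.8% higher without overlap. Their median log2 fold change was 10.6, or 11.2 without fat HFD replicate 2, and they took a median of 16.2% of the counts of a liver library and 0.016% of those of a fat library. ALB, which encodes albumin, the main protein of plasma, ran from 98420 to 154800 CPM in liver with a median of 121200, and from 14.9 to 862 CPM in fat with a median of 28.9. Every liver lay far above every fat library, and the fat library of 862 CPM was HFD replicate 2, with the others at 107 CPM or less. The log2 fold change of ALB was 10.76 (standard error, SE, of 0.62, adjusted p = 2.525e-17), and 11.56 without that library. TTR (transthyretin, a carrier of thyroid hormone and retinol-binding protein; 10.75), TF (transferrin, the iron carrier; 10.39), HPX (hemopexin, which binds haem; 10.63) and GC (vitamin D-binding protein; 10.63) had log2 fold changes close to that of ALB. Without fat HFD replicate 2, TF had 11.05, HPX 11.34 and GC 11.35.

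Coagulation and fibrinolysis genes were likewise on the side of liver in 18 of 18 tested cases, all without overlap, with a median log2 fold change of 10.7. FGB, the beta chain of fibrinogen, ran from 8151 to 37730 CPM in liver with a median of 11620, and from 1.67 to 82.9 CPM in fat with a median of 3.29. The highest liver was HFD replicate 4, the highest fat library HFD replicate 2, and the log2 fold change was 10.89 (SE 0.59, adjusted p = 5.519e-18), or 11.62 without that fat library. FGL1, fibrinogen-like 1, is a liver-secreted protein of the fibrinogen family and the gene around which the study was built. It ran from 408.8 to 962.8 CPM in liver with a median of 642.7, and from 0.155 to 6.00 CPM in fat with a median of 0.304. The tissues did not overlap, and its log2 fold change was 10.66 (SE 0.37, adjusted p = 1.292e-23), 10.06 within HFD and 11.25 within LFD. Without fat HFD replicate 2, at 6.00 CPM the highest fat library, it was 10.96, with 10.70 within HFD and 11.22 within LFD. F13B, the carrier subunit of coagulation factor XIII, had a log2 fold change of 11.54, and F5, the cofactor factor V, had the smallest of the list at 3.55, with a fat median of 31.9 CPM.

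The flanks upstream of some of these genes are shown with the motif whose share differed most between liver-high and fat-high genes, a description with no test. The motif searched was GTTAATNAT on both strands, a sequence known from promoters of liver genes, in the 250 bases before the RefSeq gene start on Sscrofa11.1. It was in 20 of the 760 flanks (2.63%) of genes 10-fold or more higher in liver, in 2 of 760 (0.263%) of those 10-fold or more higher in fat, in 64 of 11112 (0.576%) of all tested genes with a flank and in 136 of 19505 (0.697%) of all flanks. Of the 20 liver-high genes, 16 (80.0%) held it within 100 bases of the start, against 67 of the 136 (49.3%) over all flanks. The 5 of the 20 with the highest mean level in liver are ALB (chr8:69643177-69643426, plus strand), PLG (chr1:7062149-7062398, plus), GC (chr8:68360263-68360512, minus), HGFAC (chr8:2076914-2077163, plus) and FGL1 (chr17:5596435-5596684, minus), a choice made after the values were seen. Each is written 5′ to 3′ on the gene's strand and ends at the base before the start, with matches of the motif in capitals:
ALB: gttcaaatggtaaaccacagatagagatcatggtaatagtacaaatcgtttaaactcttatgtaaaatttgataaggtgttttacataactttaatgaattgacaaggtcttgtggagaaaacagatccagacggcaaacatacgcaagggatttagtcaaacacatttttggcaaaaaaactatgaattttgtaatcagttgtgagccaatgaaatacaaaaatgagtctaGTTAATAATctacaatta
PLG: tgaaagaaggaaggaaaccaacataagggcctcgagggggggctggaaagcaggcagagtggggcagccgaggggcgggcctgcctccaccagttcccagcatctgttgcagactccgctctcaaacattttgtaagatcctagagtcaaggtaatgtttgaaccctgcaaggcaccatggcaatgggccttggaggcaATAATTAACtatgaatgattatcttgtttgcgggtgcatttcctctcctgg
GC: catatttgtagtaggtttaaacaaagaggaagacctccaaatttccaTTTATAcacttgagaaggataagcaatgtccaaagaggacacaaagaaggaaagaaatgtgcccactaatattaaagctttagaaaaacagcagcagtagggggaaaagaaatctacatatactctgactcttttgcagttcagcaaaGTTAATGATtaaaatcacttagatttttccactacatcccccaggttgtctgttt
HGFAC: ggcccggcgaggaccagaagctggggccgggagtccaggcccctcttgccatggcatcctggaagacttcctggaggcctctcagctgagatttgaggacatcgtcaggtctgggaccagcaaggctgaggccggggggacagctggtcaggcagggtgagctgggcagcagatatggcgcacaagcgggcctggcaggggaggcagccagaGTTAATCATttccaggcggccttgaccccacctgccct
FGL1: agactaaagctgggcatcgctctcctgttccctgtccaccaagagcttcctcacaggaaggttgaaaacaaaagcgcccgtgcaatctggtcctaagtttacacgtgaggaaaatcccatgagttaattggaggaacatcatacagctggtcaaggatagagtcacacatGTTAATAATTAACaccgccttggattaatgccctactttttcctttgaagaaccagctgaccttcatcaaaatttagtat
Counted from the start, the match lay at -18 to -10 in ALB, -51 to -43 in PLG, -55 to -47 in GC, -38 to -30 in HGFAC and, as overlapping matches on both strands, -80 to -68 in FGL1. In GC the capitals from -203 to -198 are a match of TATAAA on the other strand. PLG, the zymogen plasminogen, had a log2 fold change of 10.83, or 11.64 without fat HFD replicate 2, and HGFAC, a protease that activates hepatocyte growth factor, had one of 10.88. A match is a description of the letters and not of binding.

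FGL1 itself lies on the minus strand of chromosome 17, from 5546931 to 5596434 in the RefSeq annotation, with 9 exon blocks. Of the other motifs searched, CAAAGTCCA, a core of the site of the nuclear receptor HNF4, was in 7 of the 760 flanks of genes 10-fold or more higher in liver, 4 of the 760 of those higher in fat and 62 of all 19505. TTGCGCAA, a C/EBP site, was in 0 of the 760 flanks of either group, and in 0.164% of all flanks. TATAAA was in 10.5% of the flanks of the liver group and 8.68% of the fat group, against 9.76% of all.

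Complement, acute phase and lipoprotein genes, most of which encode secreted proteins, were also on the side of liver. The 15 tested complement genes were all higher in liver without overlap, at a median log2 fold change of 8.56. C3, the central component, had a liver median of 14230 CPM and a fat median of 9.60 CPM, with a log2 fold change of 9.80. The 11 tested acute phase and iron genes were also all higher in liver without overlap, from FTL, the light chain of ferritin, at 2.42, to 10.8, with CRP (C-reactive protein) at 9.86. The 13 tested apolipoprotein and lipoprotein assembly genes were higher in liver too, again without overlap, with a median of 9.71. APOE, which fat tissue also makes, had the smallest of them at 2.46, with medians of 17080 CPM in liver and 3290 CPM in fat, while APOB, the backbone protein of very low density lipoprotein, had 10.69.

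APOA4, an apolipoprotein of chylomicrons and high density lipoprotein, varied widely within liver. It ran from 91.4 to 2214 CPM in liver with a median of 401.5, and from 0 to 0.561 CPM in fat with a median of 0.057. Liver and fat did not overlap, LFD replicate 8 was the highest liver, and the log2 fold change was 12.08 (SE 0.55, adjusted p = 4.913e-20).

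The metabolic functions of hepatocytes followed the secreted proteins. All 17 urea cycle and amino acid catabolism genes were higher in liver without overlap, at a median log2 fold change of 9.95. CPS1, which fixes ammonia in the first step of the urea cycle, ran from 1368 to 3989 CPM in liver with a median of 2283, and from 0.582 to 36.3 CPM in fat with a median of 1.29. No fat library came near the lowest liver, and the log2 fold change was 9.95 (SE 0.54, adjusted p = 6.55e-18), or 10.76 without fat HFD replicate 2. OTC, the next enzyme of the cycle, had 11.11. FAH, the last enzyme of tyrosine breakdown, was the exception in size at 0.96, with medians of 383.0 CPM in liver and 208.3 CPM in fat, and it did not pass under total count scaling (0.28, adjusted p = 0.166).

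Bile acid genes were all higher in liver as well, 11 of 11 tested and without overlap, with BAAT under the filter. CYP7A1, the rate-limiting enzyme of bile acid synthesis, had a log2 fold change of 8.40, and SLC27A5, the bile acid-CoA ligase, had 11.93 with all libraries and 12.85 without fat HFD replicate 2. HSD3B7, an enzyme of the same pathway, had the smallest difference at 1.31. Of the drug metabolism genes, 8 of 8 tested were higher in liver without overlap, with CYP2E1, an ethanol-oxidizing cytochrome P450, at 9.25, and the other 11 of the 19 listed had no row under their symbol.

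Glucose production and fat oxidation were less one-sided. Of 7 gluconeogenesis genes tested, 5 were higher in liver and 1 higher in fat, where 40.9% and 38.5% of all genes were. The remaining member, LDHA, a lactate dehydrogenase, did not pass at -0.27 (adjusted p = 0.129). LDHA passed toward fat without fat HFD replicate 2 (-0.37, adjusted p = 0.0196) and with total count or upper quartile scaling. G6PC1, the glucose-6-phosphatase that lets liver release glucose, ran from 205.3 to 2036 CPM in liver with a median of 1286, and from 0.132 to 8.29 CPM in fat with a median of 0.352. The tissues did not overlap, and the log2 fold change was 10.66 (SE 0.53, adjusted p = 4.605e-19). PCK1, phosphoenolpyruvate carboxykinase, which also serves glycerol formation in fat, was higher in liver by 3.69 with overlap of the tissues. PC, pyruvate carboxylase, which feeds both glucose production and the export of acetyl units for fatty acid synthesis, was higher in fat, with a log2 fold change of -2.76 and medians of 236.3 CPM in liver and 1657 CPM in fat.

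Of 13 fatty acid oxidation and ketogenesis genes, 10 were higher in liver, 7 of them without overlap, where 40.9% and 16.8% of all genes were. ACADL was higher in fat (-0.83), and ACADVL and HADHB did not pass. The median log2 fold change of the list was 1.60. CPT1A, the entry step of long-chain fatty acids into liver mitochondria, had 1.60.

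**Figure D2:**
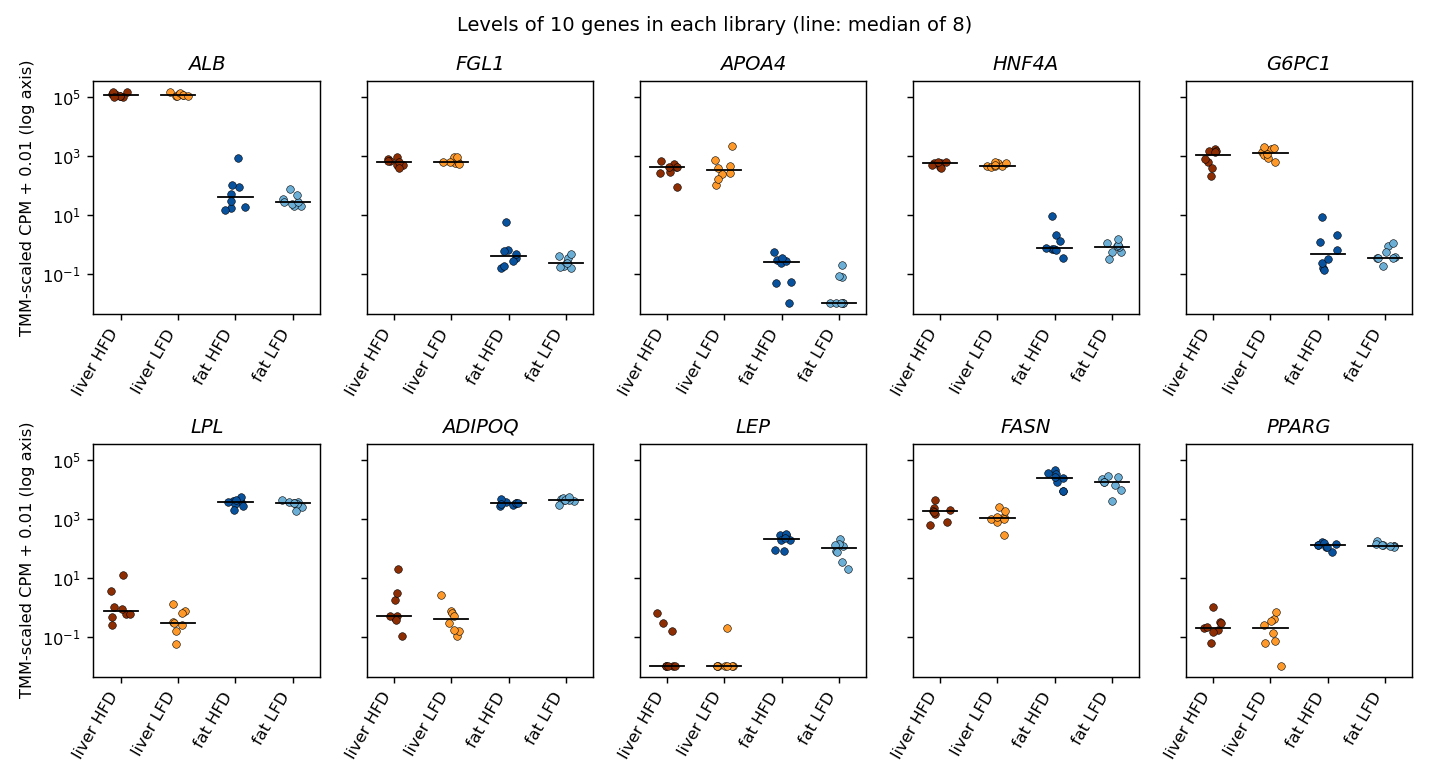
TMM-scaled CPM plus 0.01 on a log axis for 10 genes in each library, by tissue and fat group, with a line at the median of 8 libraries. The 5 genes of the upper row lie higher in all livers than in any fat library, the 5 of the lower row lie higher in fat, and FASN alone overlaps between the tissues.

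The transcription factors of hepatocytes followed the same direction in 11 of 12 cases, 10 of them without overlap. HNF4A, a nuclear receptor that governs many liver genes, ran from 385.1 to 656.2 CPM in liver with a median of 530.0, and from 0.310 to 9.15 CPM in fat with a median of 0.785. Its log2 fold change was 8.93 (SE 0.33, adjusted p = 1.607e-22), with fat HFD replicate 2 the highest fat library. FOXA2, a factor that opens liver chromatin, had 10.46. CEBPA, which serves both hepatocytes and adipocytes, was the exception, higher in fat without overlap at -1.70, with medians of 138.0 CPM in liver and 399.9 CPM in fat.

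Adiponectin, leptin and lipoprotein lipase were among the secreted proteins with large differences toward fat. Of 11 adipokine genes tested, 8 were higher in fat, where 38.5% of all genes were, and 6 of these did not overlap, against 14.4% of all genes. ADIPOQ, which encodes adiponectin, ran from 2789 to 5418 CPM in fat with a median of 3996, and from 0.095 to 20.4 CPM in liver with a median of 0.504. The liver of 20.4 CPM was HFD replicate 2, and no other liver passed 3.02 CPM. The log2 fold change of ADIPOQ was -11.34 (SE 0.67, adjusted p = 6.82e-17), and -12.25 without that liver.

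LEP, which encodes leptin, the hormone that reports fat stores to the brain, ran from 20.2 to 300.2 CPM in fat with a median of 134.2. It was at 0 in 12 of the 16 livers, with the highest at 0.614 CPM, and its log2 fold change was -11.28 (SE 0.48, adjusted p = 7.888e-21). Without liver LFD replicate 4 it was -12.36. Every fat library lay above every liver. LPL, the lipase that frees fatty acids from circulating triglyceride, had the largest difference toward fat of all genes tested with all libraries in edgeR, though MYOC, which encodes myocilin, lay further toward fat without liver HFD replicate 2 and with DESeq2 (-11.72 against -11.70). It ran from 1776 to 5540 CPM in fat with a median of 3554, and from 0.047 to 12.0 CPM in liver with a median of 0.582. Its log2 fold change was -11.67 (SE 0.56, adjusted p = 1.511e-19), and -12.26 without liver HFD replicate 2, the liver of 12.0 CPM. CFD, the complement factor adipsin that adipocytes secrete, had -2.13 with overlap.

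NAMPT, an enzyme of NAD synthesis that was also described as an adipokine, was higher in liver instead, at 1.97 without overlap. AGT, angiotensinogen, was higher in liver by 0.41 with overlap, did not pass with upper quartile scaling and stood at -0.22 with total count scaling. ANGPTL4, an inhibitor of LPL, had a log2 fold change of -0.31 that did not pass (adjusted p = 0.136), but did with either of these scalings.

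Lipid droplet and lipolysis genes were higher in fat in 11 of 16 cases, 10 of them without overlap, where 38.5% and 14.4% of all genes were. The median log2 fold change of the list was -3.60. PLIN1, the perilipin that coats the adipocyte droplet and gates lipolysis, ran from 1433 to 2511 CPM in fat with a median of 1869, and from 2.17 to 12.1 CPM in liver with a median of 3.47. Liver and fat did not overlap, the highest liver was HFD replicate 2, and the log2 fold change was -8.95 (SE 0.24, adjusted p = 9.877e-27). LIPE, the hormone-sensitive lipase, had -10.04, and PNPLA2, the lipase of the first step of triglyceride breakdown, had -4.02. PLIN5, the perilipin of oxidative tissues, and CIDEB, which loads lipid onto lipoproteins, were the 2 members higher in liver, at 4.79 and 8.64. PNPLA3, ABHD5 and G0S2 did not pass, though all of them did toward fat with total count scaling. PNPLA3 (edgeR adjusted p = 0.0538) passed toward fat in 18 of 45 alternative settings, ABHD5 in 8 and G0S2 in that 1.

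Fatty acid synthesis separated into steps on either side. Of 16 members, 12 were higher in fat, 8 of them without overlap, 3 were higher in liver and 1, SREBF1, did not pass, though it did toward fat with total count scaling (-0.59). The list took a median of 6.53% of the counts of a fat library, from 1.44% to 11.7%, and 0.391% of those of a liver library. FASN, the fatty acid synthase, ran from 4151 to 45480 CPM in fat with a median of 20190, and from 289.9 to 4210 CPM in liver with a median of 1297. A single liver, HFD replicate 7, reached above the lowest fat library, and the log2 fold change was -3.79 (SE 0.33, adjusted p = 1.811e-12). SCD, which puts the first double bond into saturated fatty acids, ran from 2016 to 32750 CPM in fat with a median of 21470, and from 107.0 to 1833 CPM in liver with a median of 796.9. No liver reached the lowest fat library, and the change was -4.54 (SE 0.37, adjusted p = 4.193e-13). The enzymes that supply the precursors were also higher in fat, with ACLY, which makes cytosolic acetyl-CoA, at -5.89, ME1, a source of NADPH, at -6.39, and ACACA, which makes malonyl-CoA, at -2.59.

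ELOVL6, which lengthens the products of FASN, had -3.60. The desaturases of polyunsaturated fatty acids went the other way, with FADS1 at 5.17 and FADS2 at 4.71, both without overlap. FADS1 had medians of 280.6 CPM in liver and 8.69 CPM in fat. MLXIPL, the carbohydrate-responsive factor ChREBP, was higher in liver at 1.38 with overlap.

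Genes of triglyceride assembly and fatty acid uptake lay on both sides, in shares near the 40.9% and 38.5% of all genes. Of 13 triglyceride assembly genes, 6 were higher in liver and 6 in fat, and of 13 fatty acid uptake and binding genes, 6 were higher in liver and 5 in fat. The median log2 fold change was 0.08 in the first list and 0.29 in the second, and with total count scaling both medians were below 0, at -0.59 and -0.35. GPAM, the mitochondrial enzyme that starts glycerolipid synthesis, was higher in liver at 3.86, and DGAT2, which adds the last acyl chain, was higher in fat at -2.20. FABP4, the fatty acid-binding protein of adipocytes, ran from 617.2 to 5442 CPM in fat with a median of 3818, and from 0.398 to 12.0 CPM in liver with a median of 0.81. Fat HFD replicate 2 was the lowest fat library, at 617.2 CPM against 3281 CPM or more in the other HFD fat libraries, and liver HFD replicate 2 was the highest liver. The log2 fold change was -11.34 (SE 0.46, adjusted p = 1.977e-21), and -11.96 without both libraries.

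Of 12 adipocyte transcription factors, 8 were higher in fat, 6 of them without overlap, where 38.5% and 14.4% of all genes were. Another 3 were higher in liver, and KLF5 did not pass. PPARG, the nuclear receptor that drives adipocyte formation, ran from 73.2 to 177.2 CPM in fat with a median of 124.8, and from 0 to 1.00 CPM in liver with a median of 0.192. No library of one tissue came near the other, and the log2 fold change was -8.98 (SE 0.27, adjusted p = 2.267e-25). EBF2, a factor of adipocyte precursors, had -9.74. PPARGC1A, a coactivator of mitochondrial and gluconeogenic genes, was higher in liver at 7.70, and KLF15, which acts in amino acid breakdown and glucose production, at 1.89.

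Positional genes, the homeobox factors that keep a record of where in the body cells arose, were all on the side of fat. All 8 tested were higher in fat without overlap, at a median log2 fold change of -7.85, with HOXC10 under the filter. The list took a median of 0.000106% of the counts of a liver library. Genes this low in liver pass the filter mainly through fat, so 8 of 8 was largely set by the filter. With at least 10 counts required in every library, 0 of them were tested. EN1, an engrailed homeobox factor, was at 0 in all 16 livers and ran from 2.46 to 6.39 CPM in fat with a median of 4.66. It was at least 482.7-fold higher in fat, with the livers set to 3 counts over the group. HOXC8 had 1 count in all livers together and a ratio of 1508 toward fat, with a 95% interval from 270.3 to 59600 that covers counting error only. HOXA5 had -5.14.

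Extracellular matrix genes were higher in fat in 20 of 22 cases, 18 of them without overlap, with a median log2 fold change of -5.05. COL3A1, the chain of type III collagen, ran from 6876 to 12430 CPM in fat with a median of 8710, and from 69.6 to 224.1 CPM in liver with a median of 122.8. All fat libraries lay above all livers, and the log2 fold change was -6.03 (SE 0.19, adjusted p = 1.025e-24). COL1A1 and SPARC, a collagen-binding glycoprotein, had -6.06 and -6.08. The 2 members on the side of liver were FN1, fibronectin, which hepatocytes release into plasma, at 4.01, and COL18A1, the source of endostatin, at 3.44.

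**Figure D3:**
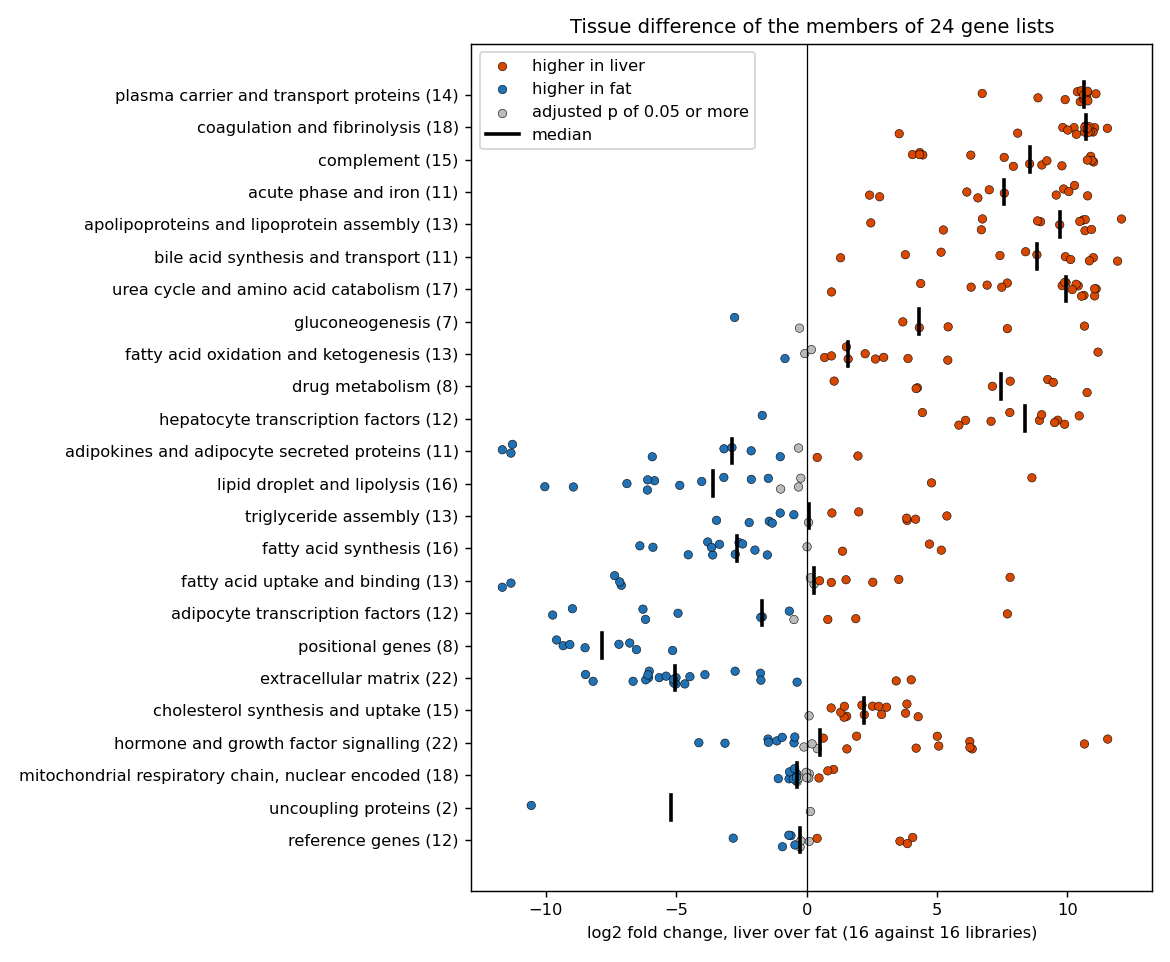
Log2 fold change of liver over fat for the tested members of each gene list, with the number of members in brackets, a bar at the median and colours for the edgeR call. Lists of secreted and metabolic liver functions lie to the right with medians up to 10.7, positional genes and extracellular matrix lie to the left at -7.85 and -5.05, and triglyceride assembly is divided.

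Cholesterol synthesis stood in contrast to fatty acid synthesis. Of 15 genes, 14 were higher in liver, 6 of them without overlap, where 40.9% and 16.8% of all genes were. The median log2 fold change of the list was 2.22. LSS, lanosterol synthase, did not pass at 0.10 (adjusted p = 0.627), with medians of 479.9 CPM in liver and 402.5 CPM in fat, and stood at -0.54 with total count scaling and -0.12 with upper quartile scaling.

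Genes of hormone and growth factor signalling lay on both sides as well, 11 of 22 being higher in liver and 8 higher in fat, where 40.9% and 38.5% of all genes were. IGFBP1, a binding protein of insulin-like growth factors that insulin represses in liver, ran from 0.984 to 419.8 CPM in liver with a median of 112.8, and from 0 to 0.234 CPM in fat, where 10 of 16 libraries were at 0. The log2 fold change was 11.55 (SE 0.79, adjusted p = 3.295e-15), without overlap of the tissues despite the wide range among livers. GCGR, the glucagon receptor, had 10.66, and LEPR, the leptin receptor, had 6.26. NPR1, the receptor of atrial natriuretic peptide, and ADRB1, the beta-1 adrenergic receptor, both known to stimulate lipolysis, were higher in fat at -4.13 and -3.13.

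KLB, the coreceptor of FGF19 and FGF21, was higher in fat at -0.93 with overlap. ADIPOR2 was higher in fat at -1.46, and ADIPOR1, the other adiponectin receptor, differed by -0.10 (SE 0.06, adjusted p = 0.0949).

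Related genes with the same task were set side by side in pairs. Of 28 pairs listed, 24 had both members in the table. In 13 of these the members were called in opposite directions, as were 31.5% of all pairs of tested genes. The pairs were chosen with earlier results of these data known, so that share does not serve as a test of them. Levels were compared within a pair per kilobase of exon length, which was taken from RefSeq and not from the Ensembl models that the authors counted. On that scale the more abundant member differed between liver and fat in 16 of the 24 pairs. The like share over all pairs of genes was not computed.

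Glucose transport showed the exchange in full. SLC2A2, the low-affinity transporter GLUT2 of hepatocytes, ran from 270.3 to 536.4 CPM in liver with a median of 377.8, and from 0 to 5.15 CPM in fat with a median of 0.203, with fat HFD replicate 2 highest. SLC2A4, the insulin-responsive transporter GLUT4, ran from 37.9 to 218.6 CPM in fat with a median of 130.3, and from 1.91 to 12.9 CPM in liver with a median of 3.94. Neither gene overlapped between the tissues, and the log2 fold changes were 10.69 and -4.69. Per kilobase, the medians in liver were 212 for SLC2A2 and 1.61 for SLC2A4, and in fat 0.114 and 53.4.

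Later steps of sugar use held further such pairs. PKLR and PKM, the pyruvate kinases, had 10.13 and -3.44, and GYS2 and GYS1, the glycogen synthases, 3.11 and -2.20. HK2, a hexokinase of insulin-responsive tissues, was higher in fat at -8.71.

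Among lipid and signalling pairs, LIPC, the hepatic lipase, had 6.70 and LPL -11.67. CIDEB had 8.64 and CIDEC, which fuses droplets in adipocytes, -5.83. FGFR4, which relays the bile acid signal FGF19, had 6.27 and FGFR1 -2.95, and the insulin receptor substrates IRS1 and IRS2 had 1.55 and -1.48. In other pairs the members were not called in opposite directions. MAT1A, the methionine adenosyltransferase of liver, had 10.75, while MAT2A, found in most tissues, had -0.18 (adjusted p = 0.152), or -0.24 (adjusted p = 0.0458) without fat HFD replicate 2, and PLIN1 and PLIN2 were both higher in fat, PLIN2 at -3.17.

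**Figure D4:**
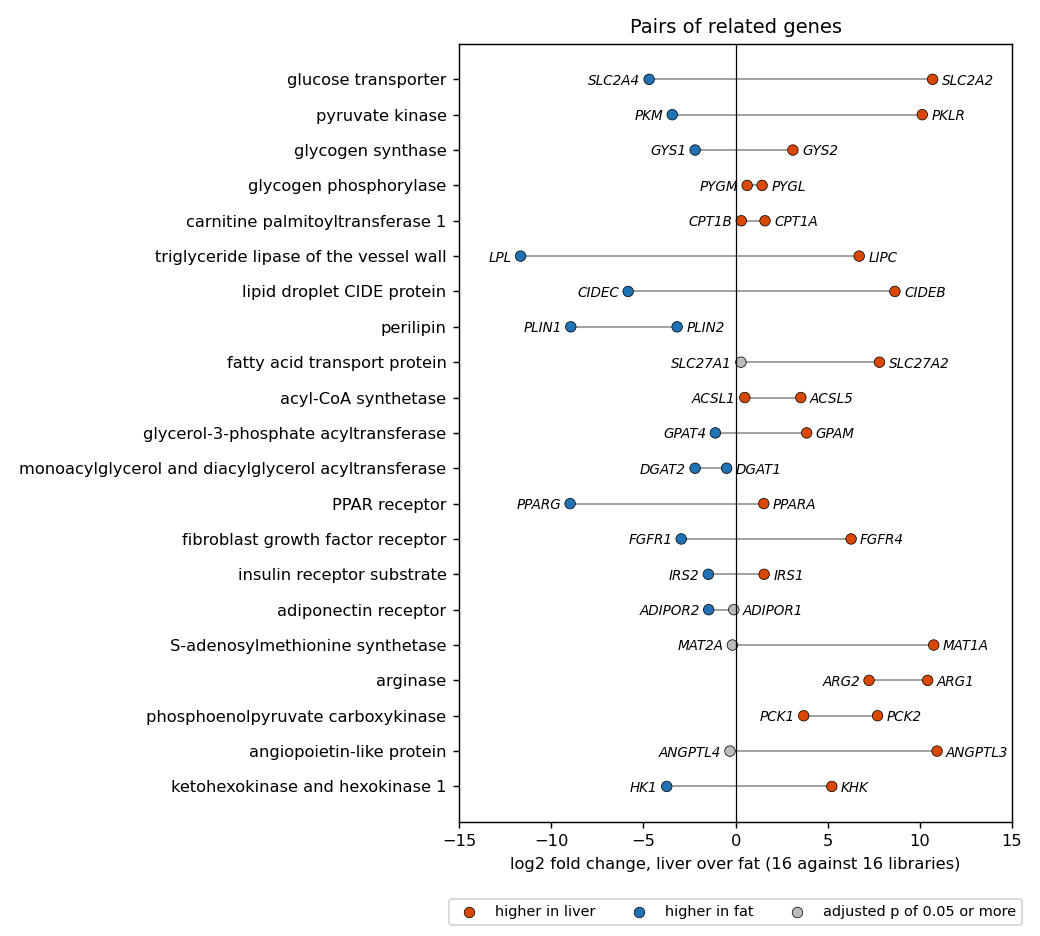
Log2 fold change of liver over fat for both members of 21 of the 24 pairs of related genes, joined by a line, with colours for the edgeR call. In 10 of these pairs the line joins a member higher in liver to one higher in fat, among them SLC2A2 at 10.69 and SLC2A4 at -4.69.

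Mitochondrial genes differed little beside these. Of 18 nuclear-encoded subunits of the respiratory chain, 3 were higher in liver and 9 higher in fat, where 40.9% and 38.5% of all genes were. The other 6 did not pass, and the log2 fold changes of the list ran from -1.08 to 1.04. With total count scaling the counts were 0, 15 and 3. SDHB, an iron-sulfur subunit of complex II, was higher in liver at 1.04, though not past the threshold with total count scaling. The mitochondrially encoded COX1, COX3 and ATP6, subunits of cytochrome oxidase and ATP synthase, were among the most abundant genes of fat, with fat medians of 25350, 16200 and 12770 CPM and liver medians of 15260, 13050 and 7703 CPM. COX1 and ATP6 were higher in fat at -0.58 and -0.62, and COX3 did not pass at -0.26 (adjusted p = 0.246), but did without fat HFD replicate 2 (-0.38, adjusted p = 0.00737).

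UCP3, a mitochondrial carrier related to the uncoupling protein of brown fat and known mainly from skeletal muscle, was among the 10 named genes with the largest difference toward fat. It ran from 76.7 to 246.3 CPM in fat with a median of 147.1, and from 0 to 0.782 CPM in liver with a median of 0.057. The tissues did not overlap, the highest liver was HFD replicate 2, and the log2 fold change was -10.56 (SE 0.31, adjusted p = 2.613e-25). Of 9 skeletal muscle markers listed 4 had a row, with a summed level of 0.466 to 14.0 CPM in the fat libraries, highest in HFD replicate 2, and their part in the level of UCP3 was not tested. UCP2, its neighbour in the family, did not pass at 0.15 (adjusted p = 0.285) but did toward fat with total count scaling, and UCP1, which is not functional in pigs, had no row.

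The flank of a fat gene is shown for UCP3 (chr9:8389453-8389702, minus strand), chosen after its values were seen. The motif was AAAGGTCA, a part of the site of PPAR receptors, on both strands, with TATAAA marked as well:
UCP3: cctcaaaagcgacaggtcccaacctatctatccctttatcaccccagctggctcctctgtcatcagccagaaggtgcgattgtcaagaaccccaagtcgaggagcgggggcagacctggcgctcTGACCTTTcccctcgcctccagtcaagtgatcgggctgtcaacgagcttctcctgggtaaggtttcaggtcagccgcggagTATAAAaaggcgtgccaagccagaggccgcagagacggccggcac
In UCP3 this motif lay at -126 to -119 on the other strand and TATAAA at -45 to -40. AAAGGTCA was in 7 (0.921%) of the flanks of genes 10-fold or more higher in fat, 8 (1.05%) of those higher in liver and 0.831% of all flanks. The motif was thus no more frequent in the fat group than in the liver group, and a part of PPARG in the level of UCP3 was not tested.

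The genes of largest difference by the rule, with a mean of at least 100 CPM and no overlap, added further functions. In liver they were CHDH, APOA4, SLC27A5, APOF, IGFBP1, F13B, AFM, LECT2, HSD17B2 and ALDH8A1. CHDH, choline dehydrogenase, which begins the oxidation of choline to betaine, had the largest of these at 12.81 (SE 0.23, adjusted p = 1.422e-30). Without fat HFD replicate 2 it had 12.78 and stood below SLC27A5 at 12.85. It ran from 138.6 to 217.3 CPM in liver with a median of 166.8, and was at 0 in 12 of 16 fat libraries, with the highest at 0.117 CPM. Liver and fat did not overlap, and its range within liver was narrow. LECT2, a hepatokine, had 11.29, AFM, afamin, a vitamin E carrier, 11.40, APOF 11.69, HSD17B2, which oxidizes sex steroids, 11.25, and ALDH8A1, an aldehyde dehydrogenase of the kynurenine pathway, 11.21.

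In fat they were LPL, MYOC, TRARG1, ADIPOQ, SDR16C5, FABP4, LEP, RDH5, UCP3 and CYP4B1. TRARG1, which regulates the traffic of GLUT4 in adipocytes, had -11.57, with a median of 1300 CPM in fat and 0.252 CPM in liver. MYOC, a secreted glycoprotein, had -11.60, or -12.43 without liver HFD replicate 2 and -12.26 without liver LFD replicate 3, and CYP4B1, a cytochrome P450 of fatty acids, -10.33. SDR16C5 and RDH5, which both oxidize retinol, had -11.34, or -12.38 without liver HFD replicate 2, and -10.89.

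Among the 10 most abundant genes of each tissue were some without a symbol. ENSSSCG00000030371 had a liver median of 13050 CPM and a fat median of 3.72 CPM, with a log2 fold change of 10.74, or 11.54 without fat HFD replicate 2. ENSSSCG00000041596, ENSSSCG00000041875, ENSSSCG00000047299 and ENSSSCG00000032599 were counted in both tissues and took their largest shares in single libraries. Together these 4 took 6.84% to 74.3% of the counts in HFD fat, highest in replicate 2, and 7.11% to 29.7% in LFD fat, highest in replicate 4. In liver they took 0.461% to 6.84% in HFD and 4.14% to 33.5% in LFD, highest in replicate 7. ENSSSCG00000041596 was higher in fat at -1.17 (adjusted p = 0.024) with all libraries but not without fat HFD replicate 2 (-0.21, adjusted p = 0.484). ENSSSCG00000041875 was likewise higher at -1.62 (adjusted p = 0.00452) with all libraries and not without that library (-0.49, adjusted p = 0.131).

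Markers of other cell types moved with the tissue. Their counts stand beside 40.9% of all genes being higher in liver and 38.5% higher in fat. All 9 tested macrophage markers were higher in liver without overlap, and their sum ran from 1491.5 to 2304 CPM in liver and from 64.0 to 375 CPM in fat. CD14, the coreceptor for bacterial lipopolysaccharide, which hepatocytes also make, ran from 450.9 to 931.2 CPM in liver with a median of 613.3, and from 5.91 to 15.1 CPM in fat with a median of 9.89. The tissues did not overlap, and the log2 fold change was 5.90 (SE 0.14, adjusted p = 8.434e-28). MARCO, a scavenger receptor of resident macrophages, had 5.95 and C1QA, a complement chain that macrophages make, 3.25.

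Of 5 liver sinusoidal endothelial markers 4 were higher in liver, with the sum at 271 to 824 CPM in liver and 60.3 to 220.97 CPM in fat. The list had a median log2 fold change of 1.69, and CLEC4G, a lectin of these cells, had its largest at 10.61. Of 7 general endothelial markers 5 were higher in fat and 2 did not pass, with the sum at 637 to 1137 CPM in fat and 199.6 to 407 CPM in liver. Their median was -1.7, and PECAM1, an adhesion protein of endothelial junctions, lay furthest toward fat at -2.81. All 7 smooth muscle and pericyte markers were higher in fat, 3 without overlap, with sums of 334 to 632 CPM in fat and 54.04 to 150 CPM in liver.

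All 5 hepatic stellate markers were higher in liver, with sums of 75.1 to 141 CPM in liver and 5.94 to 70.4 CPM in fat. Of 7 adipose progenitor markers 6 were higher in fat, with sums of 357 to 1046.5 CPM in fat and 93.6 to 286 CPM in liver, and DPP4, which hepatocytes also carry, was higher in liver at 6.58. Of 7 lymphocyte markers tested 6 were higher in liver and CD79A higher in fat, though with total count scaling 4 were higher in liver. The sum of all 9 lymphocyte markers overlapped and lay the other way, with medians of 66.1 CPM in HFD and LFD livers, 76.3 CPM in HFD fat and 88.4 CPM in LFD fat. The 3 tested red blood cell markers were higher in liver with overlap, HBB, the beta chain of haemoglobin, at 3.39, with sums of 123 to 3071 CPM in liver and 8.58 to 272 CPM in fat. Of 4 cholangiocyte markers 3 were higher in liver, the 1 skeletal muscle marker tested, CKM, was higher in fat, and the 1 epidermis marker tested, KRT10, did not pass. The part of cell makeup in the differences above was not tested.

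Of 12 common reference genes tested, 4 were higher in liver, 5 higher in fat and 3 did not pass, shares near those of all genes (40.9% and 38.5%), and with total count scaling 3, 8 and 1. HPRT1, a purine salvage enzyme, was higher in liver at 4.07, with medians of 188.8 CPM in liver and 10.7 CPM in fat, and GUSB, a lysosomal enzyme, at 3.58. YWHAZ, a 14-3-3 adaptor, was higher in fat at -2.81. ACTB (beta-actin) and GAPDH (a glycolytic enzyme) had -0.25 (adjusted p = 0.0797) and -0.22 (adjusted p = 0.219), and both passed toward fat without fat HFD replicate 2, at -0.29 (adjusted p = 0.0443) and -0.32 (adjusted p = 0.0381).

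The tissue difference was next set side by side in HFD and LFD pigs. Within HFD 5229 genes were higher in liver and 4979 higher in fat, and within LFD 5226 and 4970. Of the 6314 genes that differed by 2-fold or more over all libraries, 6312 had the same sign in both fat groups, 6147 passed in both, 59 in HFD alone, 94 in LFD alone and 14 in neither. The 2 with opposite signs, KIFC1, a mitotic kinesin, and ENSSSCG00000045703, were weakly counted, with mean levels of 1.40 CPM or less in each tissue. The absolute difference between the log2 fold changes of the fat groups had a median of 0.19 and was over 1 for 893 genes (6.23%). Of the genes called in both groups 9244 had the same sign and 3 opposite signs, DDX28, an RNA helicase (0.34 in HFD, -0.33 in LFD), ENSSSCG00000027553 (4.03 and -2.62) and ENSSSCG00000034894 (-1.31 and 0.88).

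No gene passed the test of the difference between the fat groups, 0 of 14324 (0.0%), in edgeR, with the smallest adjusted p at 0.114. An unadjusted p under 0.05 was found for 896 genes (6.26%). With DESeq2 45 genes passed by default and 5 when it replaced no counts, and with limma-voom 0. In edgeR the 3 smallest p were those of HAO1, ENSSSCG00000034894 and SDSL, none of which passed the adjustment there. All 3 passed in DESeq2 with no replaced counts, at adjusted p of 0.000137, 0.00395 and 0.000491, and in DESeq2 by default.

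HAO1, the liver glycolate oxidase, ran from 167.4 to 347.0 CPM in HFD livers and from 231.3 to 381.8 CPM in LFD livers, against 0.196 to 2.86 CPM in HFD fat and 0 to 0.402 CPM in LFD fat. Its medians were 203.0 CPM in HFD livers, 306.7 CPM in LFD livers, 0.535 CPM in HFD fat and 0.13 CPM in LFD fat. Both tissue differences were large, 8.55 within HFD and 11.16 within LFD, and they differed by -2.61 (SE 0.49, edgeR adjusted p = 0.114). Without fat HFD replicate 2, the fat library of 2.86 CPM, the differences were 8.74 and 11.13, and the test between fat groups passed narrowly for HAO1 (-2.39, edgeR adjusted p = 0.0498). HAO1 also passed in both DESeq2 settings and in edgeR with total count scaling (adjusted p = 0.0118) or the first liver run alone (0.046). It passed as well without the 3 libraries with the largest shares in 10 genes (edgeR adjusted p = 0.0182). With limma-voom, upper quartile scaling or the second liver run alone, no gene passed. SDSL, a serine dehydratase-like enzyme, had medians of 145.0 CPM in HFD livers, 148.0 CPM in LFD livers, 1.42 CPM in HFD fat and 0.357 CPM in LFD fat. Its log2 fold changes were 6.50 and 8.28, a difference of -1.78 (SE 0.36, adjusted p = 0.114 from edgeR).

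The 2 libraries with the highest traces of the other tissue moved the fold changes within HFD. The median of the plasma protein list was 9.65 within HFD and 11.4 within LFD, and 10.9 and 11.4 without fat HFD replicate 2. In the same way the coagulation list had 10.0 and 11.3, and 11.0 and 11.3 without that library. ALB had 9.70 within HFD and 11.82 within LFD, and 11.33 and 11.79 without it. On the side of fat, ADIPOQ had -10.02 and -12.66, and -11.82 and -12.69 without liver HFD replicate 2. With fat HFD replicate 2 and liver HFD replicate 2 both left out, 5828 genes were higher in liver, 5842 higher in fat, and 0 passed the test of the difference between the fat groups.

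DESeq2 by default replaces a count far from the rest of its group by a trimmed mean over all libraries, which here covers both tissues. The ALB count of fat HFD replicate 2, at 3017, was replaced by 187785, and the ADIPOQ count of liver HFD replicate 2, at 365, by 31494. Such counts were replaced in 82 of the tested genes, 70 of them in fat HFD replicate 2. Of 143 named genes 13 then moved by more than 1.5-fold, 12 of them with a replaced count. ALB had 7.94 and within HFD 4.09, TF 7.68, HPX 7.86, GC 7.85, PLG 7.98, APOB 7.89, SLC27A5 8.77, CYP2E1 6.91, ADIPOQ -8.37 and within HFD -4.01, and FABP4 -8.20. The plasma protein list had a median of 7.98, with 5.63 within HFD. With no counts replaced, a setting chosen after seeing the data, DESeq2 gave ALB 10.70 and within HFD 9.61, ADIPOQ -11.38 and -10.05, and the plasma protein list 10.5 and 9.42. EN1, at 0 in all livers, was then the 1 named gene that moved by more than 1.5-fold from edgeR.

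**Figure D5:**
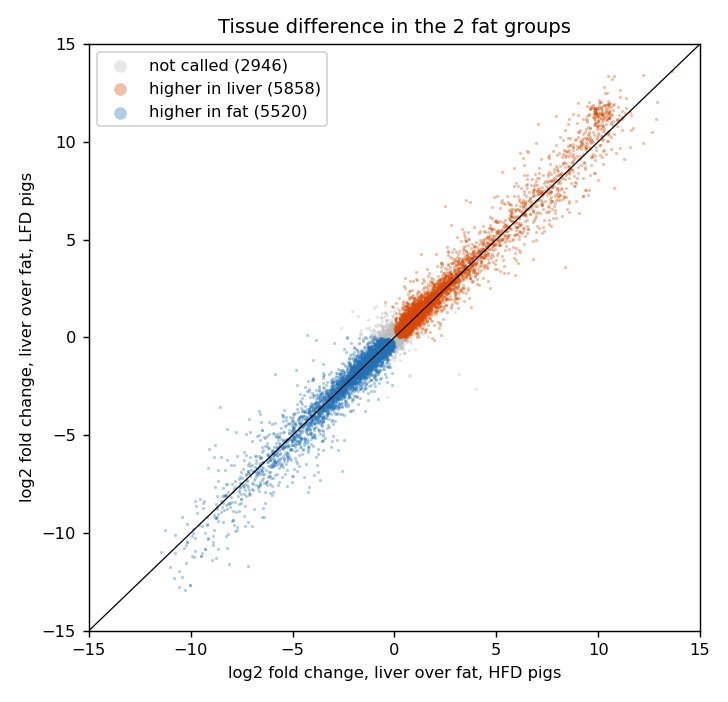
Log2 fold change of liver over fat in HFD pigs against that in LFD pigs for 14324 genes, with the line of equal values and colours for the call over all libraries. Genes gather along the line, with 6312 of the 6314 genes of 2-fold or more at the same sign on both axes.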

How the data were processed

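RNA of the 32 libraries was isolated with a PureLink kit, had an RNA integrity number above 7 and was sequenced from TruSeq v2 libraries. That kit does not mark strand, so reads of a gene and of an overlapping gene on the other strand cannot be told apart. The deposited files are 2 tables of raw counts per Ensembl gene, made by the authors, 1 for fat and 1 for liver with 2 runs per library. The submitters' processing notes name FastQC, STAR, RSEM, DESeq2 and the genome Sscrofa11.1, with no versions. Replicates were not pooled. All 48 count columns were matched to a sample by title, 0 were left unused, and the 2 runs of each liver library were added. Totals ran from 9409976 to 30457374 counts, and counting error is smallest for abundant genes.

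Counts of both tables were joined by identifier. Symbols were found for 15029 of 31908 genes. Genes were filtered by filterByExpr, scaled by TMM over all 32 libraries and fitted in edgeR 4.0.16 (R 4.3.3) by the robust quasi-likelihood test with 4 group means, tissue by fat group. The tissue contrast is the mean of the contrasts within HFD and LFD, the fat groups were compared by the interaction term, and p-values were adjusted by Benjamini-Hochberg over the 14324 tested genes with a threshold of 0.05. The scripts were tested on simulated data. Alternatives used DESeq2 1.42.0, limma 3.58.1 with voom, other scalings and filters, single liver runs, a replicate block and fits without single libraries; leaving out fat HFD replicate 2 and liver HFD replicate 2 together, and DESeq2 with no replaced counts, were chosen after seeing the data. Flanks and exon lengths came from RefSeq on Sscrofa11.1, where 11112 of 12019 tested genes with a symbol matched 1 gene. Intervals on count ratios cover counting error only. Tables, text and figures were made with Python 3.11.15 and matplotlib 3.10.9.

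The gene lists and pairs were chosen with earlier results of these data known. Genes named in the text are members of these lists and pairs, the 10 genes with a symbol of largest log2 fold change in each direction among those that passed, did not overlap and had a mean of at least 100 CPM in the higher tissue, the 10 most abundant genes of each tissue, the 3 of smallest interaction p, and FGL1. HGFAC, KIFC1, DDX28, ENSSSCG00000027553 and ENSSSCG00000045703 fall outside this rule and were named after their values were seen. Some members of these lists and pairs are counted but not reported singly here.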

Additional observations from a re-analysis of the deposited data

Results flagged for a closer look

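In 34 of 124 sets of 8 libraries, 1 library lay far from the other 7 by Dixon's ratio at the 95% critical value. These sets were 24 of library measures and 100 of gene levels in CPM. Of the 34 values, 14 were those of fat HFD replicate 2 and 8 those of liver HFD replicate 2. The critical value is passed in about 5% of sets only where sets are independent and values normally distributed. The sets here share libraries, and the distribution of CPM was not checked, so the share expected by chance was not tested.

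Fat HFD replicate 2 had 9409976 counts against 14950000 to 19480000 in the other HFD fat libraries, a TMM factor of 0.372 against 1.14 to 1.59, and 80.9% of its counts in its 10 most counted genes against 18.7% to 28.3%. Hepatocyte genes were highest in it. Its summed hepatocyte markers were at 1145 CPM against 21.0 to 136.4 CPM. ALB was at 862.4 CPM against 14.9 to 107.1, FGB at 82.9 against 1.67 to 9.42, FGL1 at 6.003 against 0.155 to 0.644 and CPS1 at 36.3 against 0.582 to 3.34. G6PC1 was at 8.29 against 0.132 to 2.06, HNF4A at 9.147 against 0.352 to 2.15, SLC2A2 at 5.145 against 0 to 0.41 and HAO1 at 2.859 against 0.196 to 0.821. FABP4 was low in it at 617.2 CPM against 3281 to 5442, and COL3A1 high at 11050 CPM against 6876 to 8543.

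Liver HFD replicate 2 held the most of the adipocyte genes among HFD livers. Its summed adipocyte markers were at 104.7 CPM against 23.0 to 51.3 CPM. LPL was at 12.01 CPM against 0.248 to 3.58, ADIPOQ at 20.38 against 0.0993 to 3.02, FABP4 at 11.95 against 0.745 to 2.28 and LEP at 0.6143 against 0 to 0.281. PLIN1 was at 12.06 against 2.22 to 4.37, PPARG at 1.005 against 0.0496 to 0.318 and UCP3 at 0.7819 against 0 to 0.152.

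The other 12 values were spread over 10 libraries. Fat LFD replicate 4 had a TMM factor of 0.957 against 1.28 to 1.53 and 42.2% of its counts in 10 genes against 19.4% to 26.1%, and liver LFD replicate 7 had 47.2% against 22.6% to 25.9%. Fat LFD replicate 7 had summed hepatocyte markers at 94.78 CPM against 27.9 to 59.0 and FGB at 8.225 CPM against 2.31 to 4.91. FGB was at 37730 CPM in liver HFD replicate 4 against 8151 to 16570. APOA4 was at 0.1933 CPM in fat LFD replicate 6 against 0 to 0.0776, and at 2214 CPM in liver LFD replicate 8 against 102.0 to 715.9. ADIPOQ was at 2.693 CPM in liver LFD replicate 3 against 0.0946 to 0.765, and LEP at 0.1909 CPM in liver LFD replicate 4 against 0 in the others. FASN was at 4210 CPM in liver HFD replicate 7 against 632.8 to 2256, and SLC2A4 at 12.9 CPM in liver HFD replicate 8 against 3.15 to 5.87.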

How the results depend on the processing

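Of 143 named genes, 119 kept their direction and their side of the threshold under every one of 45 alternatives that gave them a value, and 79 had a value under all 45. The minimum of 10 counts gave none for 58 genes, and DESeq2 with no replaced counts gave no adjusted p for 12 of outlying counts. The other 24 were ABHD5, ACADVL, ACTB, ADIPOR1, AGT, ANGPTL4, COX3, ENSSSCG00000034894, ENSSSCG00000041596, ENSSSCG00000041875, FAH, FGF21, G0S2, GAPDH, HADHB, KLF5, KRT10, LDHA, LSS, MAT2A, PNPLA3, SDHB, SREBF1 and UCP2, all with log2 fold changes from -1.62 to 1.04. Single libraries changed the call of PNPLA3 (adjusted p = 0.0538 in edgeR with all libraries) in 9 cases, ADIPOR1 in 6, ABHD5 and HADHB in 5 each and ACTB in 4. ANGPTL4 passed without fat HFD replicate 4, and COX3, GAPDH, LDHA and MAT2A without fat HFD replicate 2. With total count scaling AGT turned to -0.22, LSS to -0.54, FGF21 to -0.051, HADHB to -0.51, SREBF1 to -0.59 and UCP2 to -0.46, and with upper quartile scaling LSS to -0.12, HADHB to -0.0305, SREBF1 to -0.19 and UCP2 to -0.0622. SREBF1, at 0.02 (adjusted p = 0.937 in edgeR), also stood at -0.017 with DESeq2 in both settings, -0.0351 with limma-voom, -0.0061 with TMM without mitochondrially encoded genes, -0.013 with no filter, -0.0399 with the first liver run alone and -0.171 to 0.087 without single libraries. Total count scaling gave 3007 genes higher in liver and 8698 in fat (5268 at 2-fold or more), with 2811 higher in liver within HFD and 2601 and 8441 higher in liver and fat within LFD, and with 15 respiratory chain, 2 uncoupling and 8 reference genes higher in fat. Where each library had to hold at least 10 counts, a condition that drops genes silent in a tissue, 3749 genes were higher in liver and 3600 in fat, 1475 and 1571 at 2-fold or more, 3313 and 3226 within HFD and 3292 and 3157 within LFD. That minimum left as higher in liver 8 plasma protein, 4 coagulation, 9 complement, 7 acute phase, 5 apolipoprotein, 4 bile acid, 6 urea cycle, 5 drug metabolism, 1 hepatocyte transcription factor and 5 hormone signalling genes, and as higher in fat 3 adipokines, 3 adipocyte transcription factors, 0 positional and 0 uncoupling genes. With no filter 4780 genes were 2-fold or more higher in liver. The test of the difference between the fat groups passed 45 genes with DESeq2 by default, 5 with DESeq2 and no replaced counts, 3 with total count scaling, 2 with the first liver run alone and 1 without the 3 libraries with the largest shares in 10 genes. Leaving out single libraries gave 0 to 3 such genes, 3 without fat HFD replicate 7 and 1 each without liver HFD replicate 3, fat HFD replicates 2 and 3 and fat LFD replicates 1, 3, 4 and 8. The cause of these changes in the test between fat groups was not tested, apart from the replaced counts. With no replaced counts DESeq2 gave an adjusted p for 7 of 14 plasma protein genes, all 7 higher in liver. Leaving out single libraries gave 5686 to 5933 genes higher in liver and 5509 to 5904 higher in fat.

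Libraries of the same replicate number and fat group had a mean correlation of deviations of -0.006 across tissues, against 0.0012 for other numbers. Of 32 libraries, 2 correlated best with their own number. No liver and fat library were known to share a pig, so whether the numbers pair the tissues was not tested. With the replicate block 5882 genes were higher in liver and 5441 in fat, 3154 and 3149 at 2-fold or more, and 0 passed the test between fat groups. Genes near 0 in a tissue, such as LEP in liver with 25 counts over 16 libraries, are limited in precision by depth.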

Other observations

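Further pairs of related genes exchanged their rank per kilobase of exon length, given here as medians of TMM-scaled CPM per kilobase. LIPC had 76.7 in liver and 0.791 in fat, whereas LPL had 0.194 and 1180. CIDEB had 145 in liver and 0.31 in fat, and CIDEC had 6.5 and 426. PKLR had 63.6 in liver and 0.0443 in fat, and PKM had 6.01 and 66.2. For the methionine adenosyltransferases, MAT1A had 485 in liver and 0.161 in fat, and MAT2A stood at 43.2 and 47. Adiponectin receptors kept their order, with ADIPOR2 above ADIPOR1 at 153 against 48.2 in liver and 385 against 52.7 in fat.

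A few listed genes had almost no reads in one tissue, and their ratios rest on counts. HOXC6 had a ratio of 1758 toward fat (95% interval 315.2 to 69480) and HOXA9 one of 414.9 (74.1 to 16430), each with 1 count over the livers. NR0B2, a nuclear receptor that bile acids induce, had a ratio of 3272 toward liver (95% interval 905.3 to 27020).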
